A study of Sus scrofa with 10 samples.

Results

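Myosin light chains are small proteins that clasp the lever arm of the myosin head. Each myosin heavy chain carries 1 essential and 1 regulatory light chain, and phosphorylation of the regulatory chain by a light chain kinase tunes contraction. Sarcomeric actins form the thin filaments on which myosin pulls. Muscles of different kinds are known to use different genes for the same part, so these genes are standard markers of fast, slow, ventricular, atrial, smooth and non-muscle cells. The genes described here are the essential light chain genes MYL1, MYL3, MYL4, MYL6 and MYL6B, the regulatory light chain genes MYL2, MYL9 and MYL11, and the sarcomeric actin genes ACTA1 and ACTC1. They are 10 of the 25880 genes in the deposited table, taken by their gene names.

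The libraries came from domestic pigs of the Northeast Min breed, 60 days old, with no treatment or altered genotype named in the labels. 9 libraries were from single tissues (heart, psoas major, longissimus dorsi, liver, spleen, lung, kidney, subcutaneous adipose tissue and ovary), and 1 was from a mixture of these organs, in which the muscle is not specified and adipose tissue is not listed. Psoas major and longissimus dorsi are skeletal muscles of the loin and back. Each tissue had 1 library, so no difference below has a replicate check, no test was run, and for no neighbouring pair of tissues is it known whether their order exceeds the spread between animals. The labels do not say which heart chambers were sampled or how many animals were used. Values were read as FPKM, fragments per kilobase of transcript scaled to the size of the library, a scale on which genes of different length can be compared. In these whole-tissue samples, fewer cells of a type and less RNA per cell cannot be told apart.

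The tissue labels matched their markers. Of 36 defining genes on 8 marker lists, 36 were highest in the labelled tissue, or in a skeletal muscle for the fast-fibre list. The summed FPKM of a library lay between 292495 (kidney) and 369254 (longissimus dorsi). The depth of the libraries is unknown here. The commonest step between low values of short genes corresponded, on a 1 kb transcript, to 0.0317 FPKM in lung and up to 0.0875 FPKM in psoas major, uncertain by a factor of 2. Values of about 0.1 FPKM or less therefore rest on very few fragments. No linear fold is given against them, and differences on log2(FPKM + 1) that involve them move with the pseudocount of 1.

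2 of the members needed care in naming. MYL6 and MYL6B lie next to each other on chromosome 5 of the pig assembly Sscrofa11.1. The gene identifier table gives the name MYL6 to ENSSSCG00000039506 (21554351 to 21558992), which coincides with the RefSeq gene MYL6B. The RefSeq gene MYL6 coincides with ENSSSCG00000039795 (21559299 to 21562418), which that table leaves unnamed. The names used here follow position. The other 8 genes were named by identifier, and MYL11 is called MYLPF in RefSeq.

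Of the 10 genes, 5 were highest in heart (MYL2, MYL3, MYL4, MYL9 and ACTC1), 4 in longissimus dorsi (MYL1, MYL6B, MYL11 and ACTA1) and 1 in spleen (MYL6). The share of all genes highest in each tissue is not given here, so these counts describe the members only. Together they held 10.98% of the summed FPKM of longissimus dorsi, 7.93% in psoas major and 5.87% in heart, against 0.0365% in liver and 0.242% in spleen. In longissimus dorsi ACTA1 and MYL11 ranked 2 and 3 among all genes. In psoas major MYL11 and ACTA1 ranked 2 and 3. In heart MYL3, MYL2, ACTA1 and ACTC1 ranked 3, 7, 8 and 9.

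**Figure D1:**
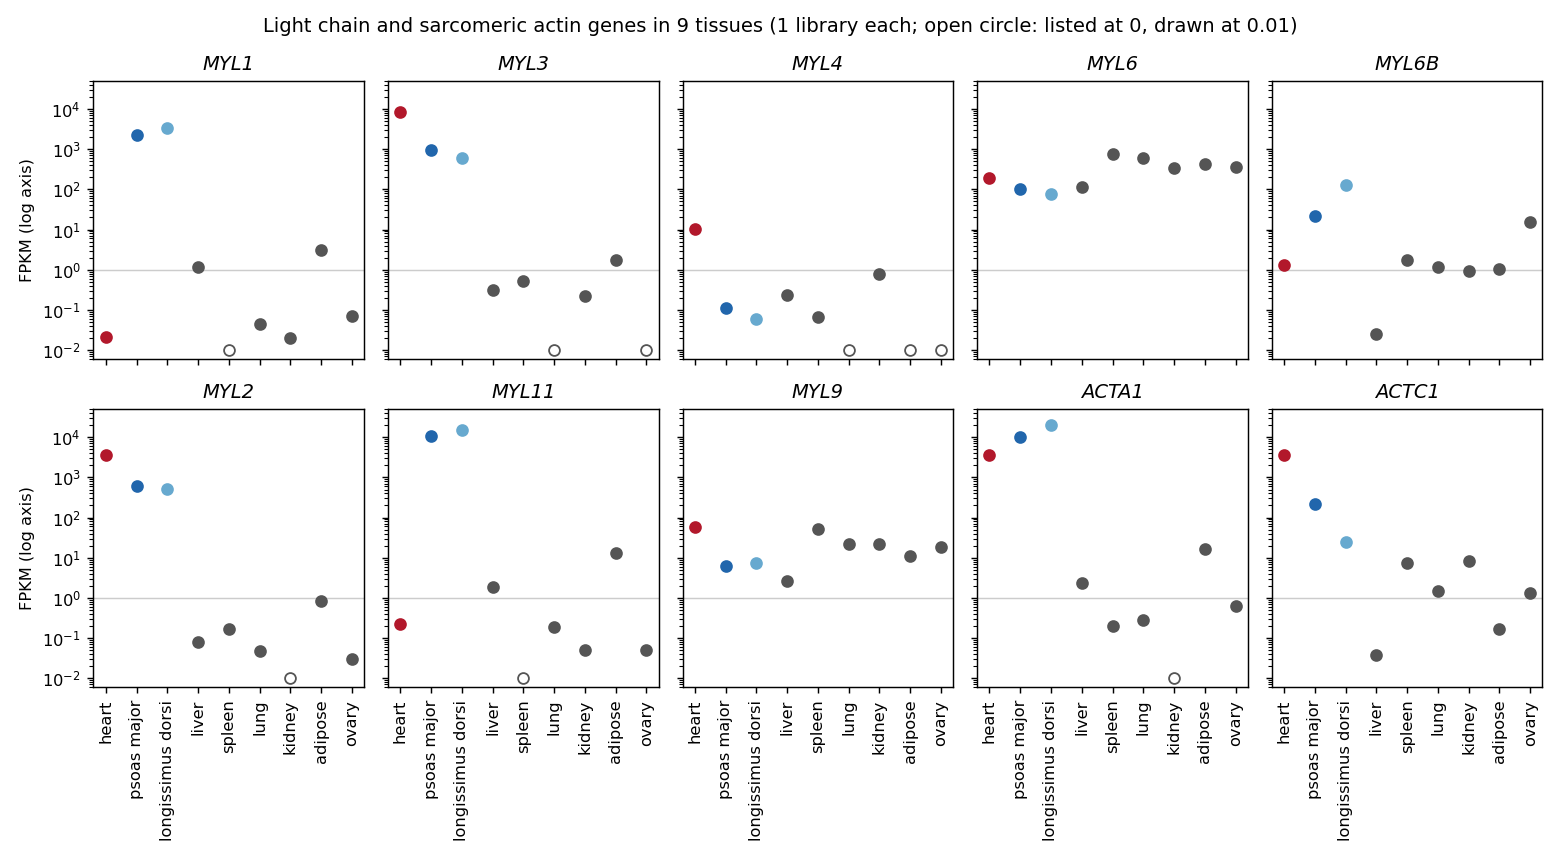
FPKM of each of the 10 genes in 9 tissues on a log axis, 1 point per library, with heart in red, the skeletal muscles in blue and light blue, the other tissues in grey, and open circles for values listed at 0. MYL1 and MYL11 are at 2297 FPKM or more in both skeletal muscles and at most 13.3 elsewhere, and MYL6 lies between 78.2 and 743 FPKM in all 9.

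Among the essential light chains, MYL1 (ENSSSCG00000016157, chromosome 15, 113036194 to 113063231) encodes the essential light chains of fast skeletal fibres. It stood at 2297 FPKM in psoas major and 3478 in longissimus dorsi, and at 0.0206 in heart. Outside muscle it reached 3.01 in adipose tissue and 1.16 in liver, and it was at most 0.0684 in ovary, lung and kidney and listed at 0 in spleen. The skeletal muscles thus did not overlap with any other tissue, and heart lay with the non-muscle organs. The deposited table gives 1 value for MYL1, so its alternative transcripts, which share most of their exons, cannot be told apart. A gene model on the opposite strand, ENSSSCG00000038840, overlaps MYL1 and followed it at 159 FPKM in psoas major and 205.5 in longissimus dorsi. Whether the reads were assigned by strand is not given in the sources used here, so reads of these models cannot be told apart.

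MYL3 (ENSSSCG00000011325, chromosome 13, 29730583 to 29735586) encodes the essential light chain of ventricular and slow skeletal muscle. It stood at 8244 FPKM in heart, 961 in psoas major and 606 in longissimus dorsi. All 6 non-muscle tissues lay at or below 1.73, the value in adipose tissue, and lung and ovary were listed at 0. Heart was 8.58-fold above psoas major and 13.6-fold above longissimus dorsi.

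MYL4 (ENSSSCG00000017307, chromosome 12, 16774550 to 16792213) encodes the atrial essential light chain, which embryonic skeletal muscle also uses. It was low throughout, with 10.6 FPKM in heart, 0.782 in kidney, 0.241 in liver, 0.113 in psoas major, 0.0657 in spleen and 0.0599 in longissimus dorsi. Lung, adipose tissue and ovary were listed at 0. Heart was the only tissue above 1 FPKM. Within the summed essential light chains of heart, MYL4 held 0.126% and MYL3 97.6%.

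MYL6, the essential light chain gene of non-muscle and smooth muscle myosin, was the most even of the 10 genes. It was highest in spleen (743 FPKM) and lung (592), followed by adipose tissue (420.3), ovary (370), kidney (337), heart (191), liver (115), psoas major (104) and longissimus dorsi (78.2). The highest tissue was 9.50-fold above the lowest. SMARCC2, on the opposite strand, overlaps 1485 bases of this gene model and stood between 8.95 and 40.5 FPKM.

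MYL6B, which encodes a relative of MYL6 described for slow muscle and non-muscle cells, had a different pattern from its neighbour. It stood at 127 FPKM in longissimus dorsi, 21.3 in psoas major and 15.9 in ovary. The remaining tissues held 1.74 (spleen), 1.30 (heart), 1.19 (lung), 1.06 (adipose tissue), 0.910 (kidney) and 0.0253 (liver). Ovary was 9.10-fold above the next non-muscle tissue. The 8 fast-fibre markers summed to 6.77 FPKM in ovary, within the range of 4.40 (kidney) to 19.7 (adipose tissue) over the non-muscle tissues. Some other genes of skeletal muscle were above 1 FPKM in ovary. Among them were the filament genes MYBPC1 (8.08) and LMOD3 (7.94), CDH15, a cadherin of myoblasts (4.04), and the embryonic heavy chain gene MYH3 (3.47). Others were not. Of the satellite cell markers listed with CDH15, PAX7 was listed at 0 in ovary and MYF5 stood at 0.353. The muscle regulators MYOD1 and MYOG stood at 0.0875 and 0.0434 there. The part of skeletal muscle RNA in the ovary level of MYL6B was not tested.

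Among the regulatory light chains, MYL2 (ENSSSCG00000039710, chromosome 14, 32202466 to 32213672) encodes the regulatory chain of ventricular and slow skeletal muscle. It stood at 3664 FPKM in heart, 619.9 in psoas major and 525 in longissimus dorsi. No non-muscle tissue exceeded 0.843, the value in adipose tissue. Its profile over the 9 tissues was close to that of its partner MYL3, with a Pearson correlation of 0.9986 on log2(FPKM + 1), although MYL2 was 0.444 times MYL3 in heart, 0.645 in psoas major and 0.867 in longissimus dorsi.

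MYL11 (ENSSSCG00000007799, chromosome 3, 17938130 to 17941107) encodes the fast skeletal regulatory chain. It stood at 10547 FPKM in psoas major and 15165 in longissimus dorsi, against 0.227 in heart. Adipose tissue held 13.3 and liver 1.84, and lung, kidney, ovary and spleen lay between 0 and 0.188. SEPTIN1, a cytoskeletal GTPase gene whose model covers all of MYL11 on the opposite strand, was also high in muscle, at 124 FPKM in psoas major and 262 in longissimus dorsi, against 27.4 in spleen and 1.04 in heart. These SEPTIN1 values were 1.17% and 1.73% of MYL11. As for MYL1, reads of the overlapping models cannot be told apart, so the muscle level of SEPTIN1 is uncertain.

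MYL9 (ENSSSCG00000036402, chromosome 17, 39788171 to 39799143) encodes a regulatory chain of smooth muscle and non-muscle myosin. It was highest in heart (56.8 FPKM) and spleen (51.9), then lung (22.4), kidney (21.96), ovary (18.5), adipose tissue (10.9), longissimus dorsi (7.49), psoas major (6.14) and liver (2.68). Heart was 8.34-fold above the mean of the skeletal muscles. The other genes of smooth muscle did not place heart first. Of 8 smooth muscle markers, 7 were highest in spleen, and DES, which striated muscle also uses, was highest in psoas major. MYH11, the smooth muscle heavy chain, stood at 7.17 in heart, 128 in spleen, 91.3 in lung and 116 in ovary. MYL9 was therefore 7.93 times MYH11 in heart, 2.71 times in kidney, and between 0.159 and 1.04 times in the other 7 tissues. Against ACTA2, a smooth muscle actin, the ratio was 1.37 in heart and at most 0.446 elsewhere. RGS5, a pericyte gene, was also highest in heart (56.05), with 43.6 in psoas major and 21.8 in longissimus dorsi, whereas NOTCH3 and PDGFRB of the same list were highest in spleen. The part of vessel wall cells in the MYL9 level was not tested.

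**Figure D2:**
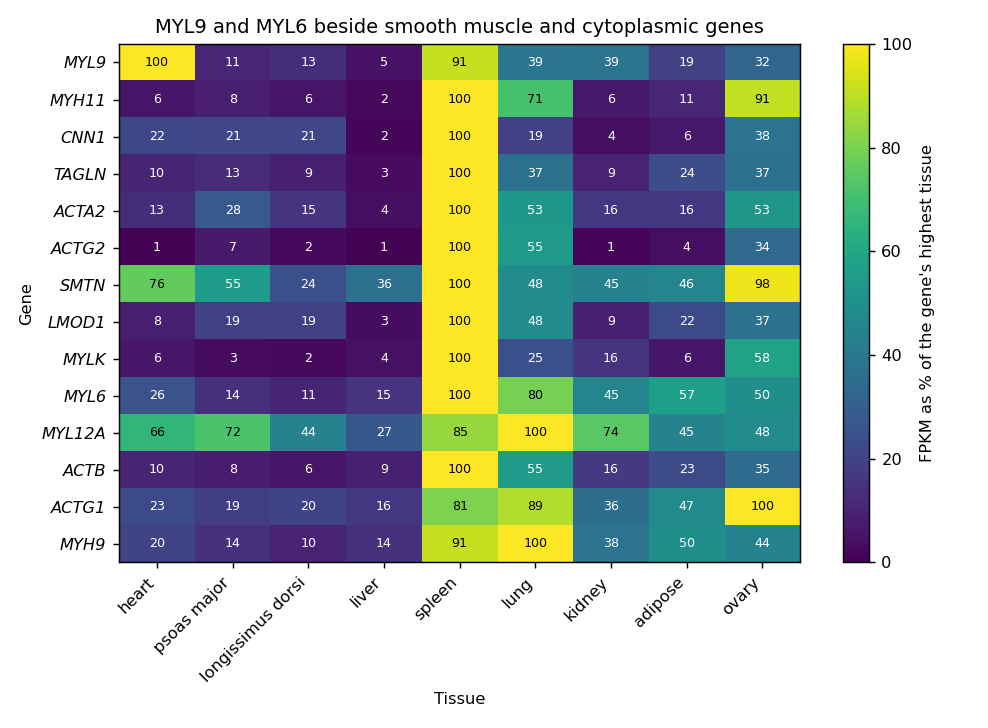
FPKM of MYL9, MYL6 and genes of smooth muscle or the general cytoskeleton in 9 tissues (columns), with colour and printed number giving the percentage of that gene's highest tissue. MYL9 is highest in heart, where MYH11, CNN1, TAGLN, ACTA2, ACTG2 and LMOD1 lie at 21.6% or less and SMTN at 75.8%.

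Of the sarcomeric actins, ACTA1 (ENSSSCG00000010190, chromosome 14, 60412628 to 60422994) encodes skeletal alpha-actin. It stood at 20549 FPKM in longissimus dorsi, 10454 in psoas major and 3653 in heart. Adipose tissue held 16.4 and liver 2.30, ovary, lung and spleen held 0.634, 0.282 and 0.204, and kidney was listed at 0. ACTC1 (ENSSSCG00000004803, chromosome 1, 136281119 to 136286631) encodes cardiac alpha-actin, which fetal skeletal muscle also makes. It stood at 3517 in heart, 217 in psoas major and 24.1 in longissimus dorsi. Kidney (8.50) and spleen (7.39) came next, then lung (1.4995), ovary (1.31), adipose tissue (0.164) and liver (0.0379). Kidney was thus at 0 for one sarcomeric actin and at 8.50 for the other. The coding sequences of vertebrate actins are much alike, so the sharing of reads among ACTA1, ACTC1 and the smooth and cytoplasmic actins is uncertain. ACTA2 stood at 49.3 in kidney and 314 in spleen.

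Within heart both sarcomeric actins were used about equally at the RNA level: ACTC1 held 49.1% and ACTA1 50.9% of their sum. ACTC1 held 2.03% in psoas major and 0.117% in longissimus dorsi. Of 6 actin genes (ACTA1, ACTC1, ACTA2, ACTG2, ACTB and ACTG1), the sarcomeric ones held 95.9% of summed FPKM in heart, 97.2% in psoas major and 98.8% in longissimus dorsi. In the other tissues they held between 0.127% (lung) and 2.62% (adipose tissue).

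Shares within the light chain classes show how each striated muscle filled the same positions. Of the essential light chains, MYL3 held 97.6% in heart, 28.4% in psoas major and 14.1% in longissimus dorsi, while MYL1 held 67.9% and 81.1% in the skeletal muscles. MYL6B made up 0.629% in psoas major and 2.96% in longissimus dorsi. In the 6 non-muscle tissues MYL6 held from 95.9% (ovary, with MYL6B at 4.11%) to 99.8% (lung). Shares of the regulatory light chains leave out the atrial MYL7, which is not reported here, and none is therefore given for heart. MYL11 held 93.4% in psoas major and 96.2% in longissimus dorsi, and MYL2 held 5.49% and 3.33%. Outside striated muscle MYL12A, a non-muscle regulatory chain, led in every tissue with 69.2% to 88.6%, and MYL9 held from 5.31% (liver) to 26.1% (spleen). MYL12B was not analysed here.

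**Figure D3:**
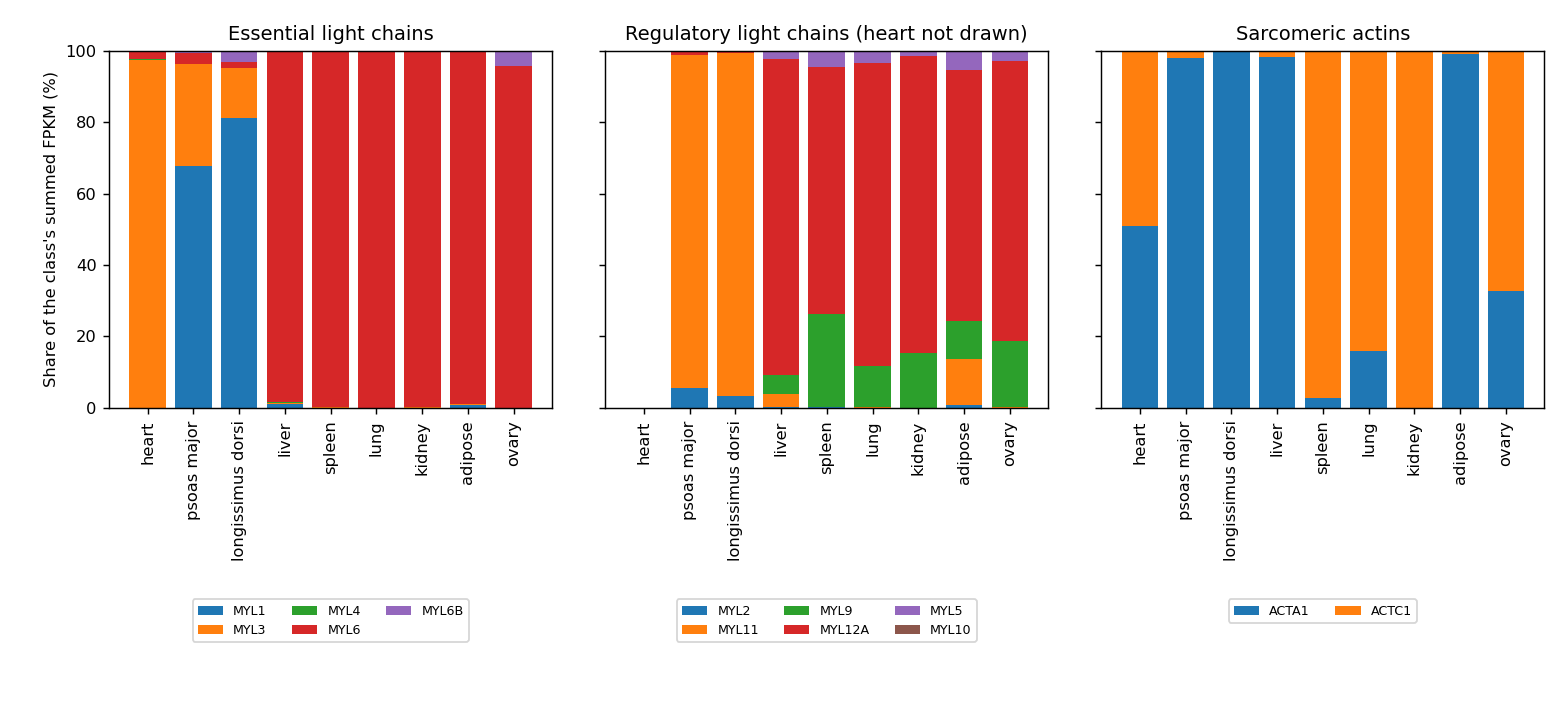
Percentage of the summed FPKM of the essential light chains, the regulatory light chains and the sarcomeric actins that each gene holds in 9 tissues, as stacked bars, with MYL7 and MYL12B left out and the regulatory bar of heart not drawn. MYL3 fills 97.6% of the essential class in heart and ACTC1 49.1% of sarcomeric actin there, and the actin bars of the 6 non-muscle tissues divide sums of at most 16.6 FPKM.

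Summed levels were compared between the parts of the sarcomere. The sarcomeric essential chains (MYL1, MYL3 and MYL4) summed to 8255 FPKM in heart, 3258 in psoas major and 4083 in longissimus dorsi. MYL2 and MYL11 together summed to 11167 in psoas major and 15689.8 in longissimus dorsi, where essential to regulatory was 0.292 and 0.260. No such ratio is given for heart, since MYL7 is not reported. Sarcomeric actin was 1.26, 1.69 and 4.01 times the summed striated heavy chains in heart, psoas major and longissimus dorsi. These ratios depend on the transcript length used for each gene, which is unknown here.

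Heart was then compared with skeletal muscle. A gene was called when log2(FPKM + 1) differed by at least 2 from each of the skeletal muscles, among genes at 1 FPKM or more in heart or in both muscles. All 10 genes passed that filter, 5 were called higher in heart and 3 higher in skeletal muscle. Over all 11145 genes tested, 3.01% were called higher in heart and 1.91% higher in muscle. The calls towards heart were ACTC1 (differences of 4.02 from psoas major and 7.13 from longissimus dorsi), MYL3 (3.10 and 3.76), MYL4 (3.38 and 3.45), MYL9 (3.02 and 2.77) and MYL2 (2.56 and 2.80). Those towards muscle were MYL11 (-13.07 and -13.59), MYL1 (-11.14 and -11.73) and MYL6B (-3.28 and -5.80). ACTA1 (-1.52 and -2.49) and MYL6 (0.88 and 1.28) were not called. Nearest to the threshold among the called genes was MYL2. ACTA1 passed the threshold against longissimus dorsi but not against psoas major. Against the mean of the muscles MYL4, which is low, stood at 3.42, at 5.86 with a pseudocount of 0.1 and at 1.62, under the threshold, with one of 5. MYL1 went from -11.44 to -14.52 and -9.14 with the same pseudocounts, and MYL11 from -13.33 to -15.24 and -11.24.

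The median difference of the 10 genes, taken against the mean of the muscles, was 1.88, against 0.41 over all genes tested. Relative to that median of all genes, ACTA1 stood at -2.42 and MYL6 at 0.67. After median-of-ratios scaling or quantile normalisation the median of all genes fell to 0.01 and 0.04, and the share of calls that favoured heart over all genes went from 61.2% to 46.9% and 46.7%, while the members called in each direction were the 5 and 3 named above.

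Psoas major was compared with longissimus dorsi next. A gene was called at a difference of at least 1 on the same scale, among genes at 1 FPKM or more in either muscle. Of the 10 genes 9 passed the filter and MYL4 did not. ACTC1 was called higher in psoas major, with a difference of 3.11 and a linear ratio of 8.97. MYL6B was called higher in longissimus dorsi, with a difference of -2.52 and a linear ratio of 5.96. Over the 10513 genes tested, 4.66% were called towards psoas major and 2.09% towards longissimus dorsi. Under median-of-ratios scaling the share of calls towards psoas major went from 69.0% to 36.7%.

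The other 7 genes did not reach the threshold. ACTA1 lay just outside it at -0.97, MYL1 stood at -0.60, MYL11 at -0.52 and MYL9 at -0.25, whereas MYL3 stood at 0.67, MYL6 at 0.40 and MYL2 at 0.24. MYL2 turned to -0.14 under median-of-ratios scaling, where ACTA1 passed the threshold at -1.35, and MYL11 turned to 0.28 under quantile normalisation. The median over the 9 genes was -0.25 and that over all genes tested 0.27 towards psoas major. Relative to the median of all genes, ACTA1 lay at -1.25, MYL1 at -0.87, MYL11 at -0.80, MYL2 at -0.03 and MYL3 at 0.39. None of the 5 slow-fibre markers was called: TNNI1, slow troponin I, stood at 528 in psoas major and 414 in longissimus dorsi, and the model that spans MYH6 and MYH7 at 858 and 479.9. All 8 fast-fibre markers were highest in longissimus dorsi. Of these, 3 were called, TNNT3 (-1.01), MYBPC2 (-1.09) and ACTN3 (-1.50), against 2.09% of all genes tested. The model that spans the fast heavy chain genes MYH1 and MYH2 went the other way. It stood at 4869.9 in psoas major and 2567 in longissimus dorsi, a difference of 0.92, and was not called. The part of fibre type makeup in these differences was not tested.

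Genes of developing muscle, a stage at which ACTC1 is also used, were read beside it. The embryonic heavy chain gene MYH3 stood at 41.5 FPKM in psoas major and 27.8 in longissimus dorsi, and the perinatal MYH8 at 51.3 and 65.5. MYOG, a regulator of muscle differentiation, stood at 10.3 and 11.9, and the satellite cell marker PAX7 at 1.33 and 1.06. None of these was called.

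**Figure D4:**
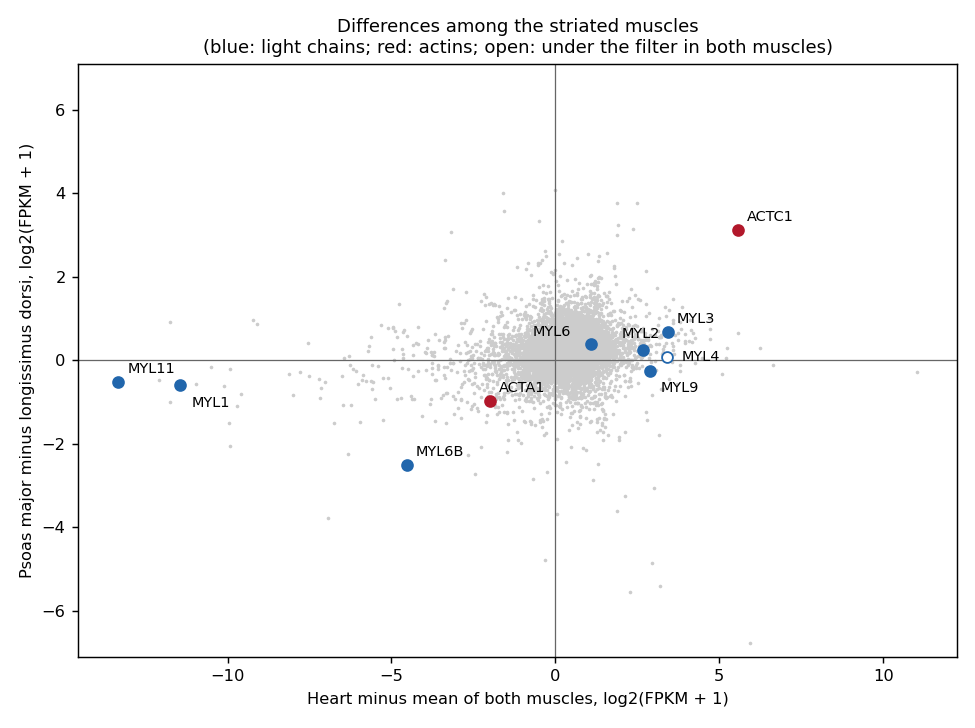
Difference between heart and the mean of the skeletal muscles (x) and between psoas major and longissimus dorsi (y), both on log2(FPKM + 1), for the 10 genes (light chains in blue, actins in red) over all genes that passed both filters (grey). MYL11 and MYL1 lie far left at -13.33 and -11.44, ACTC1 at the upper right (5.57 and 3.11) and MYL6B at the lower left (-4.54 and -2.52).

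Striated muscle was also compared with the other tissues. A gene was called when the lowest FPKM + 1 of heart, psoas major and longissimus dorsi was at least 5-fold the highest of the 6 other tissues. 3 of the 10 genes met this, MYL2 (285-fold), MYL3 (222-fold) and ACTA1 (209.5-fold), against 0.640% of the 15637 genes tested. ACTC1 was the only other member whose lowest striated muscle exceeded every other tissue (2.65-fold), which held for 3.56% of all genes. With the skeletal muscles averaged, 6 members were at least 5-fold above every other tissue class, 4 in heart (ACTC1 at 29.0-fold, MYL3 at 10.5, MYL4 at 6.51 and MYL2 at 6.39) and 2 in skeletal muscle (MYL11 at 898-fold and MYL1 at 720.0). Over all genes 6.49% were enriched in some class, 0.345% in heart and 0.620% in skeletal muscle. MYL6B (4.45-fold) and ACTA1 (4.24-fold) lay just outside. Under median-of-ratios scaling MYL2 was no longer enriched and MYL6B and ACTA1 were, and with a pseudocount of 5 MYL4 was not. With each skeletal muscle as a class of its own MYL1 and MYL11 were not enriched and MYL6B was.

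Partner genes of the contractile apparatus were counted by the same rules. Over all genes tested, 3.01% were called towards heart and 1.91% towards muscle, 4.66% towards psoas major and 2.09% towards longissimus dorsi. High in all striated muscles were 0.640%. The 10 striated heavy chain genes fell on 8 rows, since 1 model spans MYH1 and MYH2 and another MYH6 and MYH7. Of 7 rows tested between heart and muscle, 2 were called towards heart and 5 towards muscle. The MYH6 and MYH7 model stood at 5613 FPKM in heart, 858 in psoas major and 479.9 in longissimus dorsi, and the MYH1 and MYH2 model at 0.0177, 4869.9 and 2567. MYH4, the heavy chain of the fastest fibres, stood at 473 in psoas major and 1966 in longissimus dorsi and was called towards the latter. Of 18 thin filament genes, 4 were called towards heart and 10 towards muscle, among them TNNT2 (9493 in heart) and TNNI2 (6550 in longissimus dorsi), troponin subunits of heart and fast fibres. Of 8 matched thick filament genes, 1 was called towards heart, MYBPC3 (1086), and 3 towards muscle, among them MYBPC2 (1616 in longissimus dorsi). Both encode myosin-binding proteins.

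The kinases that phosphorylate regulatory light chains separated by muscle type as well. MYLK3, the cardiac kinase, stood at 23.7 FPKM in heart, 0.902 in psoas major and 0.501 in longissimus dorsi. MYLK2, the skeletal kinase, stood at 0.0498, 109 and 206. MYLK, the smooth muscle kinase, was highest in spleen (102.5) and stood at 6.24 in heart. Of the 8 kinase and phosphatase genes, 1 was called towards heart and 1 towards muscle. MYLK4, another light chain kinase, stood at 6.39 in psoas major and 1.58 in longissimus dorsi, and PPP1R12B, a subunit of the myosin phosphatase, at 20.97 and 9.18. Both were called towards psoas major. Of 4 myosin folding and methylation genes none was called between heart and muscle, and UNC45B, a myosin chaperone, and SMYD1, a myosin-interacting methyltransferase, were called in all striated muscles, at 24.5 and 25.6 in heart. Among the 17 tested transcription regulators 7 were called towards heart, with GATA6 (27.3 in heart), GATA4 (22.0) and TBX5 (20.2) at the highest levels there. These 3 were not confined to heart. GATA6 and GATA4 stood at 22.7 and 21.2 in ovary, and TBX5 was higher in lung (24.9) than in heart. Called towards muscle were 4, among them MYOD1 (13.3 in longissimus dorsi) and MYF6 (12.96 in psoas major). SRF, which binds actin gene promoters, was not called and stood at 20.4 in heart, 8.11 in psoas major and 14.9 in longissimus dorsi.

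No call between heart and muscle fell on the non-sarcomeric heavy chains (3 matched) or the other actins (4). ACTB and ACTG1, the cytoplasmic actins, stood at 103 and 158 FPKM in heart, and at 1009 and 564 in spleen. ACTG2 was called towards psoas major, at 7.56 against 2.47. MYL12A was not called either, with 107 in heart, 116 in psoas major and 72.0 in longissimus dorsi.

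Traces of transcripts high in skeletal muscle were measured in adipose tissue and liver. Among them ACTA1 and CKM were also high in heart, at 3653 and 588 FPKM. Adipose tissue held MYL11 at 0.0878%, MYL1 at 0.0866% and ACTA1 at 0.0800% of their longissimus dorsi levels. Of these genes and 8 fast-fibre markers, 10 of 11 lay between 0.0692% and 0.128% there, and PVALB was listed at 0. MYL11 to ACTA1 was 0.810 in adipose tissue and 0.801 in liver, against 0.738 in longissimus dorsi and 1.01 in psoas major. In liver the same 11 genes lay between 0.00876% and 0.0578%. The medians in spleen, lung, kidney and ovary were 0.00269%, 0.00137%, 0.00140% and 0.00870%. In the same order 4, 2, 3 and 0 of the 11 genes were listed at 0. The highest values were 0.162%, 0.188%, 4.79% (PVALB) and 0.707%. The spleen and kidney medians rest on values under 0.1 FPKM, ACTN3 at 0.0481 and TNNI2 at 0.0918, and so on very few fragments. Liver transcripts were also found in longissimus dorsi and adipose tissue. ALB, the albumin gene, stood at 127 FPKM in adipose tissue and 25.0 in longissimus dorsi, or 0.417% and 0.0820% of the liver level, and at most 0.913 in the other 6 tissues. TTR stood at 0.257% and 0.0633% of liver in these 2 tissues, at 0.724% in kidney and at 0 in psoas major. APOC3 stood at 0.273%, 0.0853%, 0.429% and 0 in the same order. APOA1 went another way. It stood at 4.10% in adipose tissue and 0.533% in longissimus dorsi, but between 1.22% and 2.51% in heart, spleen, lung, kidney and ovary. The part of RNA from other tissues in the low values of the members was not tested. ACTC1 stood at 8.50 in kidney and 7.39 in spleen. ACTA1 and MYL2 were listed at 0 in kidney and stood at 0.204 and 0.166 in spleen. DES, which smooth and striated muscle share, stood at 12.5 in kidney and 94.5 in spleen, and MYH11 at 8.11 and 128. Lung and ovary held more of both than kidney, with DES at 29.2 and 22.7 and MYH11 at 91.3 and 116. Their ACTC1 stood at 1.4995 and 1.31. The part of smooth muscle in the ACTC1 levels was not tested.

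**Figure D5:**
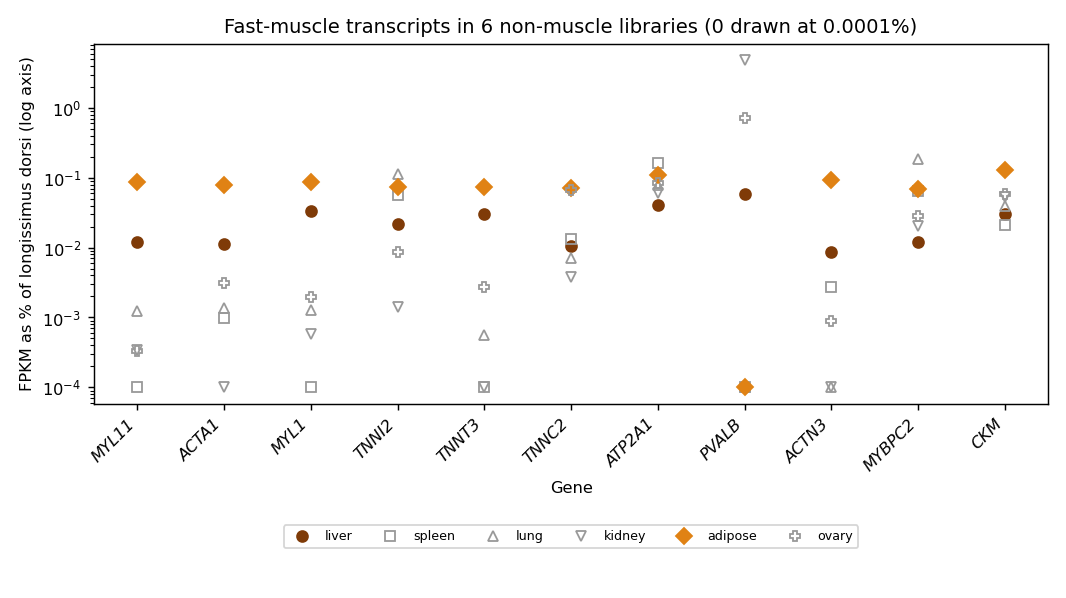
FPKM of MYL11, ACTA1, MYL1 and 8 fast-fibre markers in the 6 non-muscle libraries, as a percentage of the longissimus dorsi level on a log axis, with values of 0 drawn at the bottom. Adipose tissue (orange) is level at 0.0692% to 0.128% for 10 of 11 genes, and liver (brown) lies between 0.00876% and 0.0578%.

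The genes with the most similar profiles were taken by Pearson correlation of log2(FPKM + 1) over the 9 tissues, among 13909 named genes. These are descriptions over 9 points that share libraries and scaling. MYL1 and MYL11 had TNNT3 (0.9996 and 0.9972), each other (0.9967) and ACTN3 (0.9966 and 0.9911), fast troponin T and fast alpha-actinin. MYL2 was nearest to CSRP3 (0.9989), a Z-disc protein gene, and MYL3 to the model of MYH6 and MYH7 (0.9987). ACTA1 was nearest to CKM (0.9891), the muscle creatine kinase gene, and MYL4 to TBX20 (0.9732), a cardiac transcription factor gene. MYL6 was nearest to TLN1 (0.9903), which encodes the adhesion protein talin. MYL6B was nearest to ST8SIA2 (0.9840), NKAIN1 (0.9778) and CDH15 (0.9651), the last a cadherin of myoblasts, and CDH15 stood at 8.63 FPKM in psoas major, 11.3 in longissimus dorsi and 4.04 in ovary. ACTC1 was nearest to ATG4D (0.9858) and NDUFB8 (0.9773), and MYL9 to VTI1A (0.9700), none of them a contractile gene. ACTC1 to ACTA1 was 0.7338.

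The mixed library held every gene of the group. MYL11 stood there at 883 FPKM, or 6.86% of the muscle mean, and MYL1 at 194, or 6.73%. MYL3, ACTA1, MYL2 and ACTC1 stood at 457, 1173, 245 and 152. MYL4 was at 0.439, or 4.14% of heart. In that library MYL6 held 33.6% of the essential light chains, MYL3 45.9% and MYL1 19.5%.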

How the data were processed

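RNA abundance was measured in 10 RNA-seq libraries, made from total RNA with a TruSeq kit per the labels' protocols. The deposited table holds 1 value per gene and library, read as FPKM, since the values are not whole, the library sums differ and the submitters' processing notes name StringTie 1.2.2. The header names no unit, so another unit scaled within each library is possible. The notes also name TopHat2 2.1.0 and Sscrofa11.1. The role of each tool, like the annotation release, strandedness and filters, is not given in the sources used here.

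Names came from the identifier table (14856 genes) and otherwise from the RefSeq gene on Sscrofa11.1 with a reciprocal overlap of at least 0.5 (1638 genes, MYL6 and MYL6B among them), 63.7% of genes in all. Listed genes with no such match took the model that contains at least 0.9 of the RefSeq gene. Levels were compared as log2(FPKM + 1), and the calls were made over the whole table. The text names all 10 members, and up to 4 genes a list by their highest level or because they were called. It also names some or all of the 3 genes with the highest correlation to each member. The genes of developing muscle, those of skeletal muscle given for ovary, PAX7, MYF5, RGS5, DES and the liver genes were picked after their values were seen. The members, 9 other gene lists and 18 marker lists were chosen with earlier results of these data known. Alternatives varied the pseudocount (0.1 and 5), the scaling, the filter, the thresholds and the names. Calculations used Python 3.11.15, numpy 2.4.6, pandas 2.3.3 and matplotlib 3.10.9. MYL7 and some other listed genes are not reported here.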

Additional observations from a re-analysis of the deposited data

How the results depend on the processing

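The counts of members called changed by more than 1.5 times under 4 of the settings tried. Those higher in longissimus dorsi went from 1 to 2 under median-of-ratios scaling and under centring on the median of all genes (2 in each, ACTA1 added), and to 4 at a threshold of 0.5, where psoas major had 2. A heart threshold of 3 left 3 of 5 genes. Of the 30 most similar genes, 15 were found again with a pseudocount of 0.1 and 5 by rank correlation. For single members, MYL4 fell to 1.62 towards heart with a pseudocount of 5 and was no longer called. The direction between the skeletal muscles, where none of these was called, turned for MYL2 (-0.14 under median-of-ratios scaling and -0.03 under centring), MYL4 (-0.20 under centring) and MYL11 (0.28 under quantile normalisation). Centring subtracts the median difference of all genes, 0.27, from 0.24 for MYL2 and 0.07 for MYL4. Quantile normalisation sets values by rank, and MYL11 ranked 2 in psoas major and 3 in longissimus dorsi. Why the libraries differ in scale was not tested. The other 58 of 65 checks of counts and shares stayed within 1.5 times in number, though not always over the same members: under median-of-ratios scaling the enriched members lost MYL2 and gained MYL6B and ACTA1, and ACTC1 joined those high in all striated muscles. They include the naming of MYL6 and MYL6B by identifier, which was added after the data were seen. Summing rows of 1 symbol changed nothing, since no listed symbol had more than 1 row. No paired analysis was possible because each tissue has 1 library.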
